A study of Mus musculus with 9 samples.

Results

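Nos3, Edn1, Ece1, Ednra, Ednrb, Ace, Adm, Calcrl, Ramp2 and Ramp3 act in the vessel wall. Their products make nitric oxide, make and sense endothelin and adrenomedullin, and process angiotensin. These 10 vasomotor genes were taken by name from the deposited count table, 1 row each among 46078 genes. The rule itself uses no measured value, but the members were chosen with earlier results of these data known. They were compared between bone marrow (BM) ECs sorted as CD45-Ter119-CD31+ cells and split by Sca-1, a surface protein encoded by Ly6a, into Sca-1+ ECs (Sca-1high in the study, n = 4 libraries) and Sca-1- ECs (Sca-1low, n = 5 libraries). All 9 libraries came from normal wild type mice of strain B6, with no treatment named. The groups thus share genotype, tissue and gate and differ in the Sca-1 sort. The name ECs is that of the labels, and the groups also differ in marker genes of other cell types, as given below. Titles also begin with a number that the labels do not explain. It is lower in every Sca-1+ library than in every Sca-1- library, so whatever it stands for cannot be told apart from the sort. The labels give no age and do not say whether each library is 1 animal or a pool, so p-values measure the spread between these samples, which may be technical. Libraries are named by the end number of their label: 7, 13, 15 and 19 for Sca-1+, and 8, 10, 14, 16 and 22 for Sca-1-. Titles of libraries 13, 14 and 22 also carry CD452, and that of library 10 carries its digits. The labels do not explain this tag, which occurs in both groups. Titles of 8, 15, 16 and 19 carry wt, and that of 7 carries neither. Those of 15 and 16 share a further number, so the groups may not be independent, although the main test treats all 9 libraries as independent.

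ECs set vessel tone by releasing a relaxing gas, nitric oxide, and a constricting peptide, endothelin-1, and by processing or sensing peptides that pass in the blood. Adrenomedullin is a dilating and barrier-protecting peptide whose receptor is built from Calcrl and a partner protein of the RAMP family, and the partner sets which peptide is bound. In the marrow, such signals act on arteries and arterioles and on the sinusoids, the thin-walled vessels through which blood cells leave.

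The sort was checked first. Total counts were 23058385 to 24657204 in the Sca-1+ libraries and 21581653 to 25959818 in the Sca-1- libraries, so that 3 counts, taken here as the floor of detection, were worth 0.0996 to 0.209 CPM (counts per 1000000, with library sizes scaled by TMM). Ly6a was 1133 ± 187 CPM (SD, n = 4) in Sca-1+ and 0.678 ± 0.524 (n = 5) in Sca-1- libraries. Pecam1, which encodes CD31, was 1399 ± 261 against 836 ± 613 CPM and was not called different (adjusted p = 0.25, edgeR), whereas Cdh5, the cadherin of endothelial junctions, was 264 ± 27.2 against 7.14 ± 3.92 CPM. The 25 general endothelial genes listed for this comparison took 2.04 to 2.69% of the counts of Sca-1+ libraries and 0.171 to 0.230% of those of Sca-1- libraries. Megakaryocyte genes went the other way: 16 of 16 were lower in Sca-1+, where 21.4% of all genes were, at 0.00542 to 0.0115% against 3.16 to 6.86% of counts, and 9 of 10 leukocyte and 7 of 10 erythroid genes were lower as well, the leukocyte genes at 0.0167 to 0.0270% against 0.203 to 0.378%. No gene of these 3 lists was at the floor in every library of a group. In bulk libraries, fewer cells of a type and less RNA per cell cannot be told apart. Each member is therefore given on 2 scales, in CPM and relative to those 25 endothelial genes, and for single libraries as a ratio to Cdh5.

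All 10 vasomotor genes passed the filter on low counts. The 4 Sca-1+ libraries alone were enough to pass a gene. Edn1, Ednrb, Ace and Ramp3 passed only through them, as too few Sca-1- libraries reached the minimum count. All 10 were higher in Sca-1+ ECs in CPM, also with no filter, where 23.3% of the 15937 genes tested were called higher. However, scaling to the 25 endothelial genes left 2 called higher, where 1.91% of all genes were, and turned 1 to a call of lower. For each of the 10, every Sca-1+ library lay above every Sca-1- library in CPM, which held for 24.8% of genes tested. Their log2 fold changes ran from 2.02 for Adm to 7.15 for Ramp3, with a median of 4.11 against 0.07 over all genes tested; under endothelial scaling they ran from -1.34 to 3.69, with a median of 0.70 against -3.23 over all genes.

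**Figure D1:**
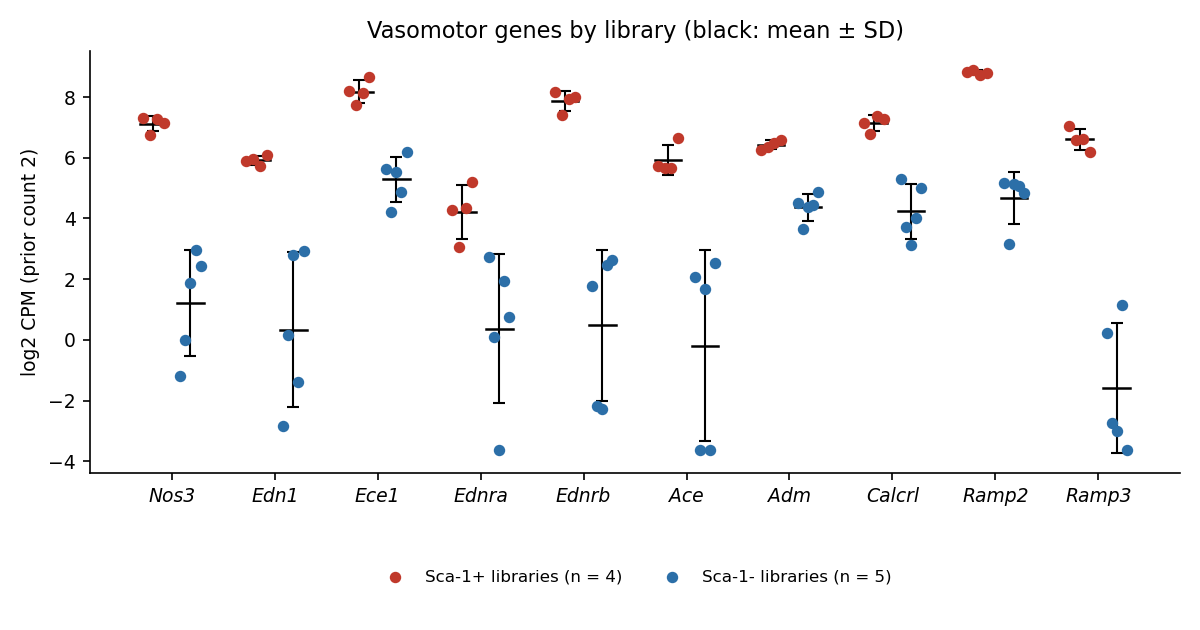
Level of each vasomotor gene in each library, in log2 CPM with a prior count of 2; points are libraries and black marks are the mean ± SD of 4 Sca-1+ (red) and 5 Sca-1- (blue) libraries. Red and blue points do not overlap for any gene on this scale, on which all 10 genes were higher in Sca-1+ (relative to endothelial genes 2 were and Adm was lower), and Ednra comes closest to overlap, while the lowest blue points of Ednra, Ace and Ramp3 are libraries with no count.

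Levels were compared between genes per kilobase of exon. In Sca-1+ ECs the highest was Ramp2, at 136 ± 6.0 CPM per kilobase, followed by Ramp3 (72.1 ± 17.1), Ece1 (56.2 ± 14.5), Ednrb (56.1 ± 11.9), Adm (53.3 ± 5.26), Nos3 (34.1 ± 5.61), Calcrl (29.3 ± 5.03), Edn1 (28.4 ± 2.92), Ace (12.1 ± 4.67) and Ednra (3.85 ± 2.14; SD, n = 4 each). Between neighbours in this order the library ranges were separate for Ramp2 and Ramp3, for Adm and Nos3, for Edn1 and Ace and for Ace and Ednra, and overlapped for the other 5 pairs. In Sca-1- libraries the order began with Adm (13.2 CPM per kilobase), Ramp2 (8.61), Ece1 (8.15) and Calcrl (4.48), while the other 6 genes lay between 0.471 and 1.49, and no neighbours in the order had separate ranges. The 4 leading genes in Sca-1- libraries included the peptide Adm and both parts of its receptor, Calcrl and Ramp2. Dividing by the longest transcript in place of all exons raised Ramp2 to 304.8 and Adm to 62.1 CPM per kilobase in Sca-1+ ECs, and in Sca-1- libraries put Ramp2 (19.2) ahead of Adm (15.3).

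**Figure D2:**
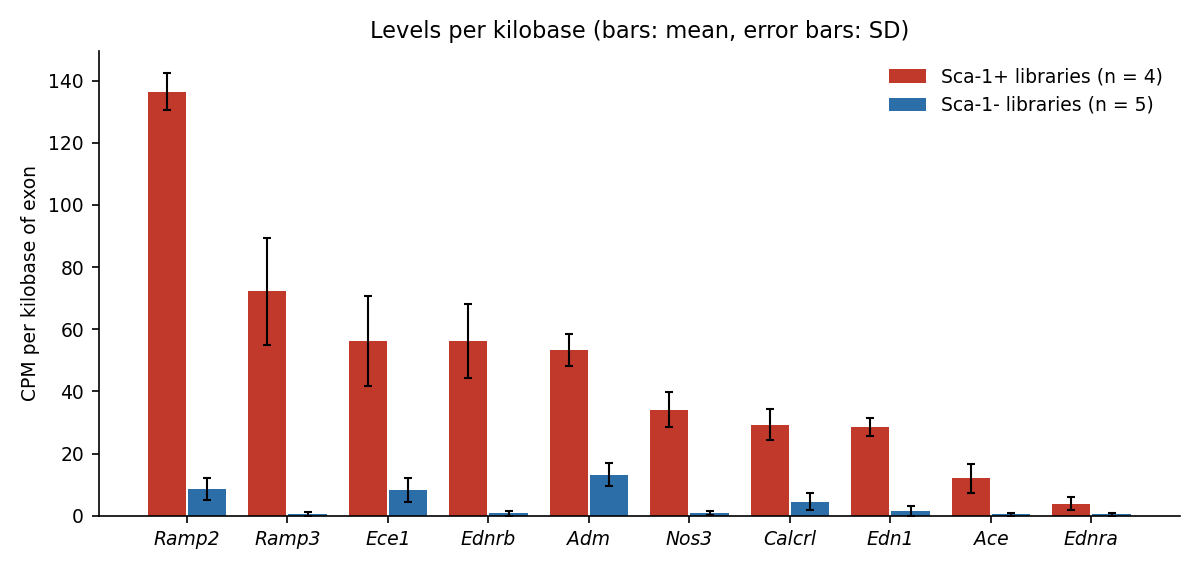
Mean CPM per kilobase of exon with SD for each vasomotor gene in 4 Sca-1+ (red) and 5 Sca-1- (blue) libraries, ordered by the Sca-1+ mean. Ramp2 stands highest at 136 and Ednra lowest at 3.85 in Sca-1+, and Adm is the highest of the Sca-1- bars at 13.2, an order with Ramp2 that turns when the longest transcript is used.

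Nos3 encodes endothelial nitric oxide synthase, the source of nitric oxide in the vessel wall (ENSMUSG00000028978, chr5:24364810-24384474 of GRCm38). Libraries 7, 13, 15 and 19 of Sca-1+ held 159, 108, 155 and 141 CPM, and libraries 8, 10, 14, 16 and 22 of Sca-1- held 0.360, 0.908, 3.61, 7.64 and 5.38 CPM. The Sca-1+ libraries lay within 1.47 times of each other, whereas the Sca-1- libraries spread over 21.2 times, with library 8 lowest. Means were 141 ± 23.2 against 3.58 ± 3.05 CPM, a 39.4-fold difference and a log2 fold change of 5.28 (SE 0.73, adjusted p = 3.2e-04). Relative to endothelial genes the log2 fold change was 1.71 and was not called (adjusted p = 0.072). Per Cdh5 count, Nos3 lay at 0.461 to 0.636 in Sca-1+ and 0.0488 to 0.733 in Sca-1- libraries, so the ranges overlapped. Exons of Nos3 overlap those of the antisense gene Gm15587 over 1040 of 4132 bases and of Atg9b over 294 bases, and whether counting used strand is not given in the sources used here, so the share of reads that belongs to each is uncertain.

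Edn1 encodes the precursor of endothelin-1 (ENSMUSG00000021367, chr13:42301476-42307990). Its Sca-1+ libraries held 59.3, 61.9, 53.5 and 68.5 CPM and its Sca-1- libraries 0.0601, 1.05, 6.87, 0.299 and 7.61 CPM. The Sca-1+ values were even, with a CV of 10.3%, but Sca-1- libraries 14 and 22 stood well above 8 and 16, of which library 8 was at the floor with 1 count. This gave a log2 fold change of 4.24 (SE 1.004, adjusted p = 0.0063), and 0.81 relative to endothelial genes (adjusted p = 0.48).

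Ece1, the membrane protease that trims big endothelin to the active peptide (ENSMUSG00000057530, chr4:137862237-137965229), held 293, 215, 282 and 401 CPM in Sca-1+ and 49.4, 18.6, 45.9, 29.4 and 72.6 CPM in Sca-1- libraries. It was well above the floor in every library, and the groups did not overlap in CPM. Its log2 fold change was 2.78 (SE 0.38, adjusted p = 2.8e-04), but -0.58 relative to endothelial genes (adjusted p = 0.30). The ratio of Edn1 to Ece1 per kilobase was 0.424 to 0.713 in Sca-1+ libraries and 0.0252 to 0.371 in the 4 Sca-1- libraries where both exceeded the floor, so the precursor was lower than its protease in all of these and the ranges of the groups did not overlap. The remaining library, 8, lay lower still with 3 counts of Edn1 assumed (0.00904).

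The endothelin receptors differed from each other. Ednrb encodes the receptor that ECs use to clear endothelin and to release nitric oxide (ENSMUSG00000022122, chr14:103814625-103844402); it held 287, 168, 244 and 259 CPM in Sca-1+ and 3.30, 0.140, 0.127, 5.48 and 6.07 CPM in Sca-1- libraries. Even the lowest Sca-1+ library was far above the highest Sca-1- library, which reached 3.61% of it, and Sca-1- libraries 10 and 14 were at the floor. Ednrb had a log2 fold change of 6.29 (SE 0.99, adjusted p = 6.4e-04) and stayed called relative to endothelial genes, at 2.77 (adjusted p = 0.022).

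Ednra encodes the constricting receptor of vascular smooth muscle (ENSMUSG00000031616, chr8:77663031-77724464) and was the least abundant member per kilobase in Sca-1+ ECs; it held 19.2, 8.24, 20.2 and 36.7 CPM there, against 6.61, 0.977, 0, 3.72 and 1.59 CPM in Sca-1- libraries. The groups were close: Sca-1- library 8 reached 80.2% of Sca-1+ library 13, and Sca-1- library 14 had no count, which allows up to 0.127 CPM. The log2 fold change was 3.03 (SE 0.99, adjusted p = 0.029), and -0.22 relative to endothelial genes (adjusted p = 0.84). The call was lost without Sca-1+ library 7, 15 or 19 or Sca-1- library 10 or 22, with an adjusted p of 0.053 to 0.081 and a log2 fold change of 2.63 to 3.08. Smooth muscle and pericyte genes were higher in Sca-1+ in CPM for 7 of the 11 tested, where 23.3% of all genes were. Mylk alone was lower, and Myocd was at the floor in every Sca-1- library. Relative to endothelial genes none was called higher and 3 were lower, where 1.91% and 81.2% of all genes were. The summed share of counts of the smooth muscle and pericyte genes was 0.0431 to 0.184% in Sca-1+ and 0.0257 to 0.0360% in Sca-1- libraries. Within Sca-1+ it was lowest in library 13 (0.0431%), then 7 (0.0924%) and 15 (0.129%), and highest in 19 (0.184%), which is also the order of Ednra itself; the part of smooth muscle or pericyte RNA in the Ednra difference was not tested. Ednrb exceeded Ednra per kilobase by 9.07 to 26.2 times in Sca-1+ libraries, and the ratio was 0.642 to 4.90 in the 3 Sca-1- libraries where both exceeded the floor, with no overlap. With 3 counts of Ednrb assumed, the ratio in library 10 was 0.275, and in library 14 both genes were at the floor.

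Ace, angiotensin-converting enzyme, cuts angiotensin to its constricting form and degrades the dilator bradykinin (ENSMUSG00000020681, chr11:105967945-105989964). It held 53.5, 50.3, 50.4 and 101 CPM in Sca-1+ and 4.08, 0, 3.10, 0 and 5.74 CPM in Sca-1- libraries. Library 19 stood above the other 3 Sca-1+ libraries, which were nearly equal, and Sca-1- libraries 10 and 16 had no count. Ace had a log2 fold change of 4.62 (SE 1.14, adjusted p = 0.0077), and 1.28 relative to endothelial genes (adjusted p = 0.33).

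The adrenomedullin genes held the smallest and the largest difference among the members. Adm encodes the peptide (ENSMUSG00000030790, chr7:110627661-110629820) and held 76.9, 82.4, 89.8 and 96.4 CPM in Sca-1+ and 22.5, 12.6, 20.6, 21.5 and 29.5 CPM in Sca-1- libraries. It was steady within each group, with a CV of 9.85% in Sca-1+ and, at 28.2%, the lowest of the members in Sca-1-. The log2 fold change was 2.02 (SE 0.24, adjusted p = 1.4e-04), but relative to endothelial genes Adm was lower in Sca-1+, at -1.34 (adjusted p = 0.017), where 81.2% of all genes were called lower.

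Calcrl encodes the receptor that RAMP proteins escort (ENSMUSG00000059588, chr2:84330626-84425411), and held 143, 109, 166 and 154 CPM in Sca-1+ and 39.3, 13.1, 8.74, 15.97 and 32.3 CPM in Sca-1- libraries. Sca-1- libraries 8 and 22 were the highest of their group, and library 8 reached 36.0% of the lowest Sca-1+ library. Calcrl differed by a log2 fold change of 2.71 (SE 0.43, adjusted p = 6.3e-04), and -0.58 relative to endothelial genes (adjusted p = 0.29). The ratio of Adm to Calcrl per kilobase overlapped between the groups, at 1.62 to 2.27 in Sca-1+ and 1.72 to 7.10 in Sca-1- libraries.

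Ramp2, the partner that makes Calcrl an adrenomedullin receptor (ENSMUSG00000001240, chr11:101246028-101259546), held 452.4, 476, 428 and 445 CPM in Sca-1+ and 35.8, 8.80, 35.1, 33.6 and 28.8 CPM in Sca-1- libraries. Its Sca-1+ libraries had the lowest CV of the members, 4.397%, and Sca-1- library 10 stood below the other 4. The log2 fold change was 3.99 (SE 0.38, adjusted p = 4.7e-05), and 0.60 relative to endothelial genes (adjusted p = 0.28). Ramp2 shares 1103 of its 3301 exon bases with Vps25 on the same strand, to which 0.851 and 2.82 CPM were assigned in Sca-1+ and Sca-1-, so reads in the shared bases are uncertain.

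Ramp3, whose complex with Calcrl binds adrenomedullin and the related peptide Adm2 (ENSMUSG00000041046, chr11:6658521-6677475), held 131, 96.3, 97.9 and 73.3 CPM in Sca-1+ and 1.08, 0.0698, 0.0424, 2.16 and 0 CPM in Sca-1- libraries. In 3 of the 5 Sca-1- libraries (10, 14 and 22) it was at the floor, and the highest Sca-1- library reached 2.95% of the lowest Sca-1+ library. The log2 fold change was 7.15 (SE 1.07, adjusted p = 4.9e-04), and 3.69 relative to endothelial genes (adjusted p = 0.011). Ramp2 exceeded Ramp3 per kilobase by 1.45 to 2.54 times in Sca-1+ libraries and by 13.8 and 6.50 times in Sca-1- libraries 8 and 16, those in which Ramp3 exceeded the floor. Ramp2 over Calcrl overlapped between the groups, at 3.81 to 6.44 against 0.997 to 5.94. Both ratios depend on the length of Ramp2: by longest transcripts Ramp2 over Ramp3 was 3.12 to 5.48 against 29.9 and 14.03, and Ramp2 over Calcrl 8.51 to 14.4 against 2.23 to 13.3, with the same separation and overlap. This length and the values with 3 counts assumed were chosen after seeing the data.

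**Figure D3:**
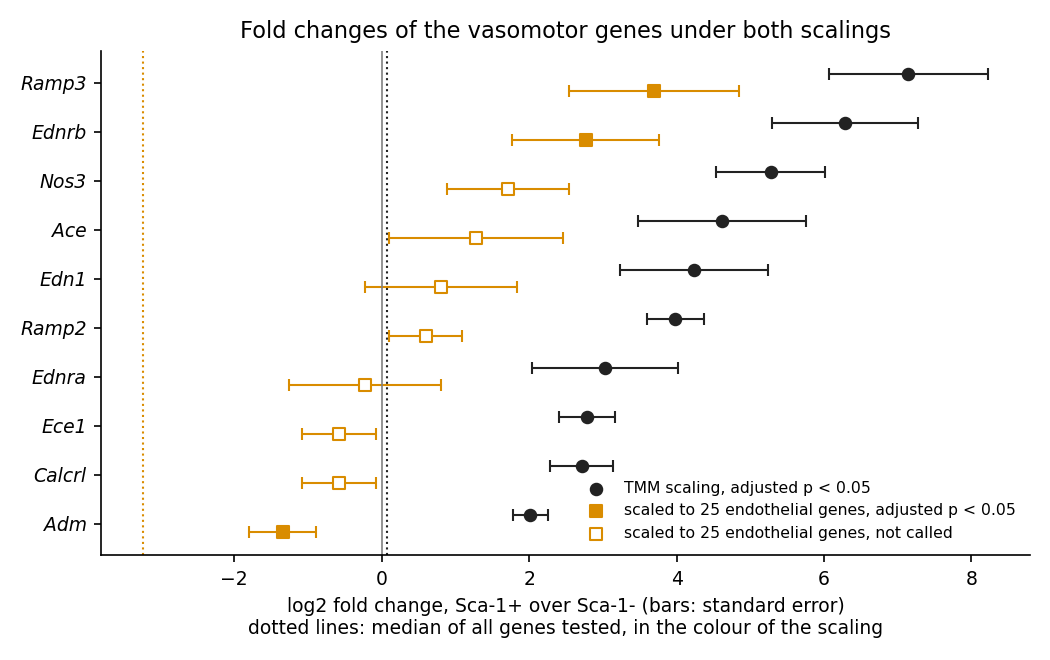
Log2 fold change of each vasomotor gene between Sca-1+ (n = 4) and Sca-1- (n = 5) libraries with its standard error, by TMM scaling (black circles) and by scaling to 25 endothelial genes (orange squares); filled symbols have an adjusted p under 0.05 and dotted lines mark the median of all genes tested. All black symbols lie above 2, and of the orange symbols only Ramp3 and Ednrb are filled above 0 and only Adm is filled below 0.

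**Figure D4:**
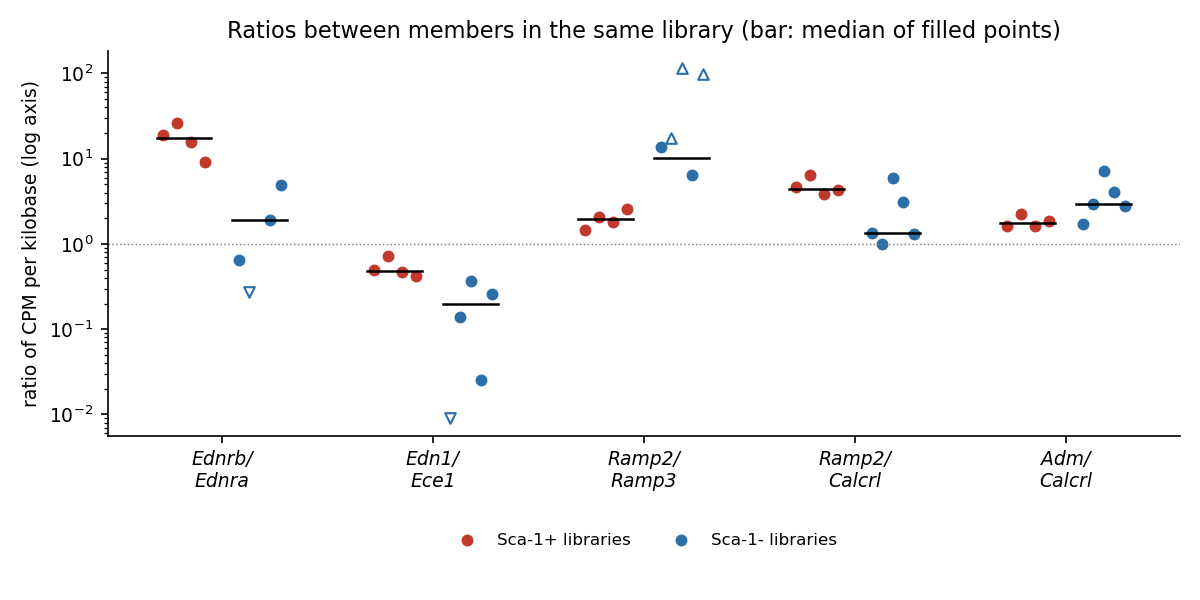
Ratios between vasomotor genes in the same library, each in CPM per kilobase of exon on a log axis, for Sca-1+ (red) and Sca-1- (blue) libraries; open triangles have the gene at the floor set to 3 counts, 1 Sca-1- library with both Ednrb and Ednra at the floor is not drawn, and bars are medians of the filled points. Ednrb over Ednra and Edn1 over Ece1 lie higher in Sca-1+ with no overlap, Ramp2 over Ramp3 lies lower with 2 filled Sca-1- points, and the other ratios overlap.

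Scaling to the endothelial list depends on which genes stand for ECs. Of its 25 genes, 23 were higher in Sca-1+ in CPM and Esam and Myct1 were not called; these took 6.54 to 8.29% of the list's counts in Sca-1+ and 29.2 to 89.8% in Sca-1- libraries. With both left out, a choice made after seeing the data, Ednrb and Ramp3 remained higher, at log2 fold changes of 1.94 and 2.73 (adjusted p = 0.032 and 0.024), where 1.17% of all genes were called higher. Adm, Calcrl and Ece1 were then lower, at -2.59, -1.94 and -1.79 (adjusted p = 4.1e-06, 0.0016 and 5.3e-04), where 90% of all genes were called lower. The other 5 members were not called on this scale. Arterial endothelial genes were higher in Sca-1+ in CPM for 9 of 10 and sinusoidal endothelial genes for 9 of 10, where 23.3% of all genes were, with Lyve1 lower. Relative to the 25 endothelial genes these counts were 6 and 2, where 1.91% of all genes were called higher. Lyve1 remained the 1 sinusoidal gene called lower, where 81.2% of all genes were.

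The members were also set beside Cdh5 in each library, as a ratio of counts that needs no scaling of libraries. Adm lay at 0.303 to 0.351 in Sca-1+ and 1.63 to 5.17 in Sca-1- libraries, and Calcrl at 0.465 to 0.571 and 1.21 to 5.34, with no overlap. Ece1 (0.916 to 1.46 and 2.23 to 9.91) and Ramp2 (1.44 to 2.03 and 2.55 to 6.51) also lay lower in Sca-1+ without overlap. Ednra lay at 0.0351 to 0.133 in Sca-1+ and 0.217 to 0.894 in 4 Sca-1- libraries, but Sca-1- library 14, which had no Ednra count, fell below the Sca-1+ range even with 3 counts assumed (0.0236), so the groups overlapped. Ace likewise overlapped, with 0.170 to 0.366 in Sca-1+, 0.553 to 0.783 in 3 Sca-1- libraries, and 0.0857 and 0.00758 with 3 counts assumed in Sca-1- libraries 10 and 16, which had none. Ramp3 alone lay higher without overlap, at 0.266 to 0.522 against 0.146 and 0.164 in the 2 Sca-1- libraries above the floor and 0.0167 to 0.0857 with 3 counts assumed in the other 3. Nos3, Edn1 and Ednrb overlapped too. Cdh5 itself had 35 to 396 counts in Sca-1- libraries, so these ratios are imprecise there, and they are a description with no test. Their direction also depends on the choice of Cdh5, whose log2 fold change was 5.20 against a median of 4.55 for the 25 endothelial genes. Ramp2, lower beside Cdh5, was at 0.60 relative to those 25 genes and -0.58 with Esam and Myct1 left out, neither called. Megakaryocyte and leukocyte genes took larger shares of the counts of Sca-1- libraries, as given above. Stromal genes took 0.0852 to 0.401% in Sca-1+ and 0.381 to 3.01% in Sca-1-, ranges that overlapped, and moved both ways in CPM. Among the 13 tested, Cxcl12, Kitl, Lepr and Adipoq were higher in Sca-1+ and Col1a1, Col1a2 and Bglap lower, where 23.3% and 21.4% of all genes were. Relative to endothelial genes 1 stromal gene was higher and 10 were lower, where 1.91% and 81.2% of all genes were. The part of these cell types in the levels of Adm, Calcrl, Ece1 and Ramp2 in Sca-1- libraries was not tested.

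**Figure D5:**
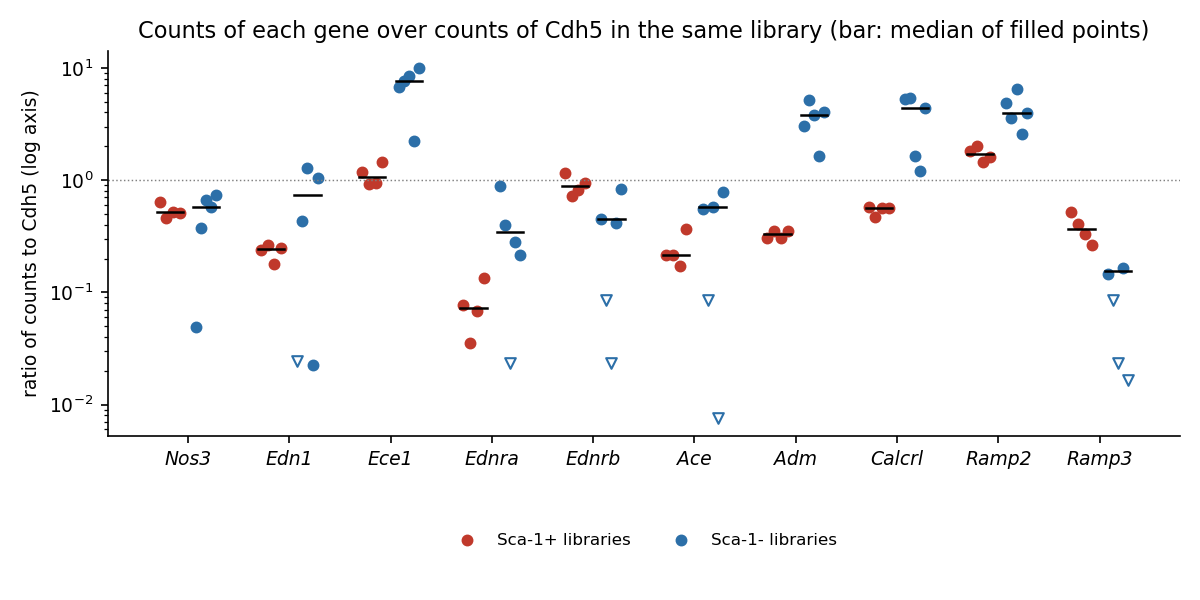
Counts of each vasomotor gene divided by counts of Cdh5 in the same library, on a log axis, for Sca-1+ (red) and Sca-1- (blue) libraries; open triangles are libraries at the floor with 3 counts assumed, bars are medians of the filled points and the dotted line marks 1. Ece1, Adm, Calcrl and Ramp2 lie lower in Sca-1+ on this scale, Ramp3 lies higher, and Nos3, Edn1, Ednra, Ednrb and Ace overlap.

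The other genes of these pathways did not move one way. Of 31 genes of nitric oxide and cyclic GMP signalling other than Nos3, 27 were tested. In CPM 10 were higher and 8 lower in Sca-1+, where 23.3% and 21.4% of all genes were. The median log2 fold change was 0.03 (0.07 over all genes). Relative to endothelial genes 1 was higher and 17 were lower, where 1.91% and 81.2% of all genes were. Nos2, inducible nitric oxide synthase, held 25.1 to 45.4 CPM in Sca-1+ and at most 0.664 in Sca-1- libraries, 3 of which were at the floor (log2 fold change 7.05, adjusted p = 3.0e-04), and was the gene still called higher relative to endothelial genes, at 3.58. The other 3 genes with the largest differences were lower: Gucy1b3, a subunit of the nitric oxide receptor guanylate cyclase, was 11.6 ± 8.72 against 385 ± 276 CPM, Pde5a, which breaks down cyclic GMP, 1.91 ± 1.01 against 148 ± 78.7 CPM, and Mrvi1, a substrate of the cyclic GMP kinase, 3.55 ± 3.18 against 318 ± 179 CPM. Their log2 fold changes were -5.06, -6.27 and -6.48 (adjusted p = 7.7e-04, 6.9e-05 and 2.8e-04). The cyclic GMP kinases Prkg1 and Prkg2 were not called, at -0.79 and -0.47 (adjusted p = 0.33 and 0.82). Platelets and their precursors are known to carry the nitric oxide receptor, and the part of megakaryocyte RNA in these values was not tested.

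Further called genes of that list, named after their values were seen, divide by step. Gch1 and Spr, enzymes that make the cofactor tetrahydrobiopterin, were higher in CPM, at log2 fold changes of 3.35 and 1.21, while Pts, the enzyme between them, and Gchfr, which restrains Gch1, were lower, at -1.18 and -2.89; relative to endothelial genes Spr turned to -2.24 and Gch1 stood at 0.05. Cav1 and Nostrin, which bind the synthase at the membrane, were at 4.12 and 4.08, Ddah1 and Ddah2, which remove its natural inhibitor, at 1.69 and 2.93, the natriuretic peptide receptors Npr1 and Npr2 at 4.18 and 2.64, and Nosip at 0.65. Of these 7, Ddah1, Ddah2, Npr2 and Nosip turned negative relative to endothelial genes, at -1.69, -0.37, -0.74 and -2.60. Only Ddah1 and Nosip of them were called lower, where 81.2% of all genes were. Cav1, Nostrin and Npr1 stood at 0.75, 0.69 and 0.79 on that scale and were not called (adjusted p = 0.23, 0.35 and 0.23, edgeR). Vasp (-1.56) and Gucy1a3 (-2.76) were also called lower.

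In the endothelin list, 7 of 10 genes were tested beside the members, and the median log2 fold change was -0.15. In CPM 1 was higher and 1 lower in Sca-1+, where 23.3% and 21.4% of all genes were. Only Pcsk5 and Pcsk6, proteases that cut peptide precursors, were called, in opposite directions: Pcsk5 was 58.7 ± 14.5 against 9.58 ± 10.2 CPM (log2 fold change 2.62, adjusted p = 0.043) and Pcsk6 8.73 ± 7.64 against 78.6 ± 54.7 CPM (-3.17, adjusted p = 0.0034). The call of Pcsk5 was lost without any 1 of the 4 Sca-1+ libraries or Sca-1- library 10, 16 or 22 (adjusted p = 0.063 to 0.088) and under RLE (0.059) or upper-quartile scaling (0.0504), and its sign turned relative to endothelial genes, at -0.66. Furin, which cuts the endothelin precursor, was 19.9 against 26.7 CPM (adjusted p = 0.28).

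Of the adrenomedullin and CGRP list, 6 of 10 genes were tested, with a median log2 fold change of 0.01. In CPM 2 were higher and 1 lower in Sca-1+, where 23.3% and 21.4% of all genes were. Gpr182, an endothelial receptor once proposed to bind adrenomedullin, was 108 ± 41.2 against 7.36 ± 6.77 CPM (3.86, adjusted p = 0.0021), though 0.28 relative to endothelial genes and -0.51 with Esam and Myct1 left out. Pam, which amidates the peptide, was 19.6 ± 2.71 against 9.20 ± 3.85 CPM (1.09, adjusted p = 0.019), but -2.18 relative to endothelial genes. Ramp1, the third of the partner family and the part of the CGRP receptor, was the gene called lower, at 5.17 ± 2.34 against 74.0 ± 27.6 CPM (-3.84, adjusted p = 1.1e-04), opposite to Ramp2 and Ramp3 in CPM. Every Sca-1- library held at least 52.2 CPM of Ramp1, and no Sca-1+ library held more than 7.55.

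Of the angiotensin and kinin list, 11 of 18 genes were tested, with a median log2 fold change of 1.42. In CPM 4 were higher and 1 lower, where 23.3% and 21.4% of all genes were. Enpep, which degrades angiotensin II, was 72.0 ± 7.84 against 3.92 ± 4.59 CPM (4.18, adjusted p = 0.014; 0.65 relative to endothelial genes and -0.20 with Esam and Myct1 left out). Prcp, a carboxypeptidase acting on angiotensin, was 102 ± 36.8 against 40.1 ± 3.68 CPM (1.35, adjusted p = 0.0014; -1.99 relative to endothelial genes). Agtr1a, a receptor of angiotensin II, was low at 4.45 ± 2.22 against 0.672 ± 0.811 CPM (2.74, adjusted p = 0.044; -0.25 relative to endothelial genes), and its call was lost without any 1 library other than Sca-1- library 10 (adjusted p = 0.051 to 0.12), under RLE scaling (0.054) and with no filter on low counts (0.0501). The bradykinin receptor Bdkrb2, named after its values were seen, held 1.42 to 8.44 CPM in Sca-1+ and no count in any Sca-1- library. It was called higher in CPM (adjusted p = 0.0012, edgeR) and relative to endothelial genes (adjusted p = 0.0023). It passed the filter only through Sca-1+, so these p-values add no support. Relative to endothelial genes it was the 1 gene of the list called higher and 6 were lower, where 1.91% and 81.2% of all genes were. Lnpep was lower, at 5.72 ± 1.19 against 18.4 ± 11.8 CPM (-1.68, adjusted p = 0.017), a call lost without Sca-1+ library 13 (-1.55, adjusted p = 0.052).

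Genes whose pattern over the 9 libraries lay closest to a member were found by the mean absolute difference of log2 CPM after centring each gene. For Nos3 these were the antisense gene Gm15587 (0.30), whose exons overlap its own, and Mmrn2 (0.37), an extracellular matrix protein of ECs. For Calcrl they were Slc15a3 (0.23) and Msrb3 (0.24). The closest to Edn1, Pydc4 (0.59) and Zfp105 (0.70), and to Ace, Ccdc102a (0.83) and Cdh4 (0.95), were less alike, and Zfp105 was not itself called (log2 fold change 3.19, adjusted p = 0.064). Some Sca-1- libraries of Pydc4, Zfp105 and Cdh4 had no count, nor had Sca-1- library 8 for Gm15587 or library 10 for Ccdc102a. Likeness over 9 libraries in 2 groups is a description with no test.

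Since the members moved together in CPM though not relative to endothelial genes, the sequences before their starts were read. RefSeq (GRCm38.p6) gave promoter windows of 250 bases before to 50 after the start for 8 of the 10, Nos3 and Ramp2 not among them. Both strands were searched for exact letters named for factor families active in ECs. The ETS letters (CCGGAA and, as another form, AGGAAG) stood in the first window listed for Ednra, Ace, Calcrl and Ramp3 (4 of 8; 45.2% of all 32851 windows), the KLF letters CACCC in 6 of 8 (57.5%), the SOX letters ACAATG in Calcrl (12.6%), the GATA letters AGATAA in Edn1 (11.2%), the hypoxia response letters ACGTG in Edn1 (19.6%) and the AP-1 letters TGAGTCA in none (5.20%). These counts take the first window of each gene; a further start of Ece1 held 1 SOX and 2 hypoxia matches. The bases before the starts of Ramp3, the member with the largest difference, Adm, with the smallest, and Edn1 are shown, all on the forward strand and 5′ to 3′, with capitals marking the ETS and KLF letters or their reverse complements.
Ramp3, chr11:6658283-6658520: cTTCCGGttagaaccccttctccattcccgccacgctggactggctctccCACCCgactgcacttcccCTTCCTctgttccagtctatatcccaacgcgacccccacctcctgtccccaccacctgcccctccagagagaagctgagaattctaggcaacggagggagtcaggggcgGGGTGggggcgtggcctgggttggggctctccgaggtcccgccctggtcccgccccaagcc
Adm, chr7:110627407-110627656: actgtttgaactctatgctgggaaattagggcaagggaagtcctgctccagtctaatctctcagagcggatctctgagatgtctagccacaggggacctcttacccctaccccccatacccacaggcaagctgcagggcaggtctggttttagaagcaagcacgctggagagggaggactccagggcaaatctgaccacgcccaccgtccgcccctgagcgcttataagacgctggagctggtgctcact
Edn1, chr13:42301226-42301475: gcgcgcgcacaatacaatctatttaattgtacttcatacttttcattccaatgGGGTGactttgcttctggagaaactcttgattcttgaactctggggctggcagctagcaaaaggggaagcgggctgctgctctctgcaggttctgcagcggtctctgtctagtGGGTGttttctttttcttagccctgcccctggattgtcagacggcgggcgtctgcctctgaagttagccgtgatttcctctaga
Ramp3 holds matches of both families in these 238 bases, Edn1 2 KLF matches and Adm none of the searched letters. In Edn1 the GATA and hypoxia matches lie after the start and are not in the stretch shown. A match is a description of the letters, not a bound site.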

How the data were processed

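RNA-seq counts of 9 BM EC libraries were analysed. The authors isolated RNA with a miRNeasy micro kit, prepared libraries from 2 ng of total RNA with the SMART-Seq v4 Ultra Low Input kit, which carries no molecular identifiers, and deposited raw read counts per gene, not normalized. The submitters' processing notes name STAR, featureCounts and mm10; versions, annotation and use of strand are not given in the sources used here. PCR copies are counted as reads, so floors cover counting error only. Groups were taken from the deposited labels.

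Counts were tested in R 4.3.3 with edgeR 4.0.16 (filterByExpr with a minimum count of 10 and a total of 15, TMM, quasi-likelihood F-test, two-sided, Benjamini-Hochberg over all 15937 genes tested, threshold 0.05) without covariates; the common dispersion was 0.301. The script was tested on simulated data. CPM used TMM-scaled library sizes. In the endothelial scaling, library sizes were set by the summed counts of 25 endothelial genes. Gene positions and exon lengths came from GENCODE M21 (GRCm38), which held 45143 of the 46078 deposited identifiers. All 185 listed symbols matched a deposited row, 4 of them through synonyms in RefSeq. Alternatives were DESeq2 1.42.0, voom of limma 3.58.1, other normalizations and filters, left-out libraries and a replicate block.

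The members and lists were chosen with earlier results of these data known. Named genes were the members, the sort checks (Ly6a, Pecam1, Ptprc and Cdh5), up to 4 called genes per pathway list with the largest change, groups that did not overlap and a mean log2 CPM from 1 upwards, and the 2 genes most like Nos3, Edn1, Ace and Calcrl; any other is marked. Ptprc, which encodes CD45, was 0.843 against 28.9 CPM. No protein sequences were used here.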

Additional observations from a re-analysis of the deposited data

Results flagged for a closer look

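In 5 of 71 sets of libraries examined, 1 library lay apart from the rest of its group by more than Dixon's 95% limit, and chance alone flags about 1 set in 20. Among log2 CPM values, Ace in Sca-1+ library 19 was 6.66, above the other 3 libraries at 5.65 to 5.74. Ramp2 in Sca-1- library 10 was 3.15, below the other 4 at 4.85 to 5.17. Library 10 was also the lowest Sca-1- library for Ece1 and Adm, and had the smallest TMM factor (0.581).

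Among ratios to Cdh5, Nos3 in Sca-1- library 8 was 0.0488, against 0.371 to 0.733 in the others. Ece1 in Sca-1- library 16 was 2.23, against 6.68 to 9.91, and library 16 had the most Cdh5 counts of its group, 396. Calcrl in Sca-1+ library 13 was 0.465, against 0.561 to 0.571.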

How the results depend on the processing

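Of the 10 members, 9 were called higher in Sca-1+ in all 9 fits that left out 1 library and in all 10 other settings apart from the endothelial scalings (RLE, upper-quartile and library size scaling, no filter, robust dispersion, voom, DESeq2, 2 libraries left out together, and the 6 libraries with and without a block). Ednra was called in 4 of the 9 and 7 of the 10. Over the fits without 1 library, its log2 fold change was 2.61 to 3.64, members called numbered 9 to 10, endothelin genes called higher 0 to 1, adrenomedullin and CGRP genes called lower 1 to 2, and angiotensin and kinin genes called lower 0 to 2.

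Scaled to endothelial genes, 304 genes were higher and 12937 lower (3721 and 3416 by TMM), and 2 members were higher; Nos3 fell to 1.71, Edn1 to 0.81, Ace to 1.28 and Ramp2 to 0.60, none called, and Ece1 (-0.58), Ednra (-0.22), Adm (-1.34), Calcrl (-0.58), Pcsk5 (-0.66), Pam (-2.18), Agtr1a (-0.25) and Prcp (-1.99) reversed. List counts, higher and lower, became 1 and 17 for nitric oxide, 0 and 5 for endothelin, 0 and 5 for adrenomedullin and 1 and 6 for angiotensin. With Esam and Myct1 left out, 187 genes were higher and 14339 lower, and 2 members were higher; Nos3 was 0.88 and Ace 0.14, not called, and Edn1 (-0.28), Ece1 (-1.79), Ednra (-1.57), Adm (-2.59), Calcrl (-1.94), Ramp2 (-0.58), Pcsk5 (-1.996), Gpr182 (-0.51), Pam (-3.62), Enpep (-0.20), Agtr1a (-2.25) and Prcp (-3.40) reversed. List counts became 1 and 21, 0 and 6, 0 and 5, and 1 and 8. By construction these scalings move the median of all genes, to -3.23 and -4.62; relative to that median the members differed by 1.89 to 6.92 and by 2.03 to 7.35, against 1.94 to 7.07 by TMM.

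By library size alone the median of all genes was 0.43 and 63.1% of calls were higher (52.1% by TMM). RLE and upper-quartile scaling left 0 endothelin genes higher, no filter gave 2 adrenomedullin genes lower and DESeq2 2 angiotensin genes lower. Without Sca-1+ library 19 and Sca-1- library 10 together, Ednra was 2.35 (adjusted p = 0.15), endothelin genes higher 0, adrenomedullin genes higher 1 and angiotensin genes lower 0. Per kilobase of the longest transcript, Sca-1+ levels of Adm and Ramp2 moved to 62.1 and 304.8. For these changes the cause was not tested.

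The end numbers of the labels are not shared between the groups. Treating consecutive end numbers (7 and 8, 13 and 14, 15 and 16) as pairs, the replicate block over 6 libraries called 2265 genes higher and 2075 lower, against 2768 and 2592 in the same libraries without it. Ednra was 3.19 with the block (adjusted p = 0.14) and 2.21 without (adjusted p = 0.24), and both fits gave 0 endothelin genes higher, 1 adrenomedullin gene higher and 0 angiotensin genes lower. Of these, 15 and 16 also share another number in their titles. Deviations of these pairs correlated at 0.15, 0.15 and 0.042, so the numbers were not taken to pair the samples, although each of these 6 libraries correlated best with its own partner, a hint from the data and not the design.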
